A study of Mus musculus with 18 samples.

Results

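The mRNAs of the proteins that bind AU-rich elements and stem-loops in cytokine transcripts, and so set how long those transcripts last, were followed in RAW264.7 cells, a mouse macrophage line. The members were chosen by name from what the proteins are known to do, with earlier results of these data known. Of 10 listed symbols, 9 were rows of the deposited table of 11243 protein-coding genes, namely Zfp36, Zfp36l1, Zfp36l2, Zc3h12a, Zc3h12c, Rc3h1, Elavl1, Khsrp and Hnrnpd, and the remaining symbol, Auf1, is an older name of Hnrnpd in RefSeq. Control cells received the DMSO vehicle, LPS cells received 500 ng/mL lipopolysaccharide from Salmonella enterica serotype minnesota Re 595 for 6 h, and LPS+torin1 cells received 100 nM torin1, an inhibitor of the kinase mTOR, 15 min before the same LPS exposure. No group received torin1 without LPS. In each of 3 experiments, every treatment gave 1 lysate, from which total mRNA and mRNA of the heavy polysomes (transcripts carrying many ribosomes) were sequenced, for 9 lysates and 18 libraries. The cells carry no engineered change named in the labels, and a transformed line grown without other cell types limits what the values say about macrophages in tissue.

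AU-rich elements are short runs of A and U in the 3′ untranslated region (3′ UTR) of many cytokine, chemokine and immediate-early mRNAs. Zfp36 encodes tristetraprolin, a zinc-finger protein that binds these elements and recruits the CCR4-NOT deadenylase, and Zfp36l1 and Zfp36l2 encode its closest relatives. Zc3h12a encodes Regnase-1, an RNase that cuts stem-loops in inflammatory mRNAs, Zc3h12c encodes its relative Regnase-3, and Rc3h1 encodes Roquin-1, which binds similar stem-loops and recruits deadenylases. Elavl1 encodes HuR, which binds AU- and U-rich sequence and is mostly known as a stabiliser, Khsrp encodes KSRP, which promotes decay, and Hnrnpd encodes AUF1, whose isoforms have been tied to both outcomes.

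Libraries held 27800983 to 47725557 counts. Replicate libraries differed by far more than sampling noise, so none was a duplicate. All 10 macrophage markers examined (among them Csf1r, Adgre1 and Cd68) were in the table, and none of the T cell, B cell, fibroblast or epithelial markers was, in a table that keeps only genes with at least 1 count in every library. The summed level of Il1b, Tnf and Ptgs2, mRNAs that LPS induces, was 286 to 581 CPM in control libraries, 9430 to 12184 with LPS and 5454 to 7005 with LPS and torin1. CPM are counts relative to a common library size, here scaled by TMM factors, which align the bulk of genes between libraries of an RNA type. Scaling by library totals instead moved the median log2 change of all genes to -0.38 in both RNA types for LPS against control, so each direction below is relative to the bulk of mRNAs. The values are shares of sequenced mRNA, and a change in a gene's mRNA per cell cannot be told apart from a change in the total mRNA per cell.

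Runs of letters typical of AU-rich elements were searched in the members' own transcripts, and stem-loops were not searched. In 1 principal coding transcript per gene (GENCODE vM21, GRCm38), the pentamer ATTTA, the heptamer TATTTAT that contains it and the nonamer TTATTTATT that contains both were counted on the sense strand, overlapping matches included. Of 10611 measured genes with an annotated 3′ UTR, 67.0% held the pentamer, 27.8% the heptamer and 7.37% the nonamer. The sites below are 30-base windows written 5′ to 3′ as DNA, with each heptamer in capitals. They show the 3 heptamers of Zfp36, the first of Zfp36l2, the repeat of Elavl1, and for comparison the elements of Il1b and Tnf, textbook targets of tristetraprolin.

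Zfp36 site 1: gggcccttTATTTATgacgacttTATTTAT
Zfp36 site 2: ttttatagTATTTATatatattgggtcgtc
Zfp36l2 site 1: atttaactTATTTATtatcttgtgaaaagt
Elavl1 site 1: atgaaaatTATTTATTTATTTATTTATttt
Il1b site 1: cacttaccTATTTATTTATgTATTTATtga
Tnf site 2: gcacttatTATTTATTATTTATTTATtatt

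The windows lie at chr7:28376962-28376991 and chr7:28376922-28376951 (Zfp36), chr17:84184910-84184939 (Zfp36l2), chr8:4285784-4285813 (Elavl1), chr2:129364804-129364833 (Il1b) and chr17:35199685-35199714 (Tnf), all in the 3′ UTR exon on the minus strand. The 774-base 3′ UTR of Zfp36 held 3 heptamers and 1 nonamer, whereas 21.2% of the 1390 measured 3′ UTRs of like length held any heptamer. Zfp36l1 and Zfp36l2 also held 3 heptamers and 1 nonamer each, in 1835 and 1822 bases, where 37.5% and 37.3% of 3′ UTRs of like length held a heptamer. Elavl1 held 8 heptamers and 8 nonamers in 4218 bases, packed into repeats near the end of the 3′ UTR, where 18.5% of 3′ UTRs of like length held a nonamer. Tnf held 8 heptamers and 5 nonamers in 764 bases, and Il1b held 3 heptamers and no nonamer in 459 bases. Some cytokine and inflammatory mRNAs taken up below, such as Cxcl10, Ccl2, Plaur and Junb, held no heptamer. Zc3h12c and Rc3h1 held 2 heptamers each, in 4062 and 7181 bases, lengths at which 60.5% and 78.4% of 3′ UTRs held a heptamer. The heptamer was not found in Zc3h12a (856 bases, 3 pentamers), Khsrp (1642 bases, 1 pentamer) or Hnrnpd (5429 bases, 10 pentamers). A match is a run of letters and says nothing about binding.

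LPS raised the mRNAs of the decay factors Zfp36, Zc3h12a, Zc3h12c and Rc3h1 in both RNA types and lowered that of Zfp36l2. The larger changes were 9.82-fold for Zc3h12a and 7.08-fold for Zfp36 in total mRNA. The p-values are from edgeR (quasi-likelihood test) and carry a Benjamini-Hochberg adjustment over all 11243 genes, and a gene passed at an adjusted p below 0.25, the false discovery rate (FDR) the study used. In total mRNA 5 of the 9 members passed as higher and 1 as lower, against 32.2% and 34.3% of all genes. In polysome-associated mRNA 5 passed as higher and 2 as lower, against 26.4% and 28.7% of all genes. With library totals the total-mRNA split became 4 higher and 3 lower, while the share of higher genes among all genes called went from 48.4% to 19.8%. The polysome split became 4 higher and 2 lower, with 47.9% and 20.1% higher among all genes called.

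**Figure D1:**
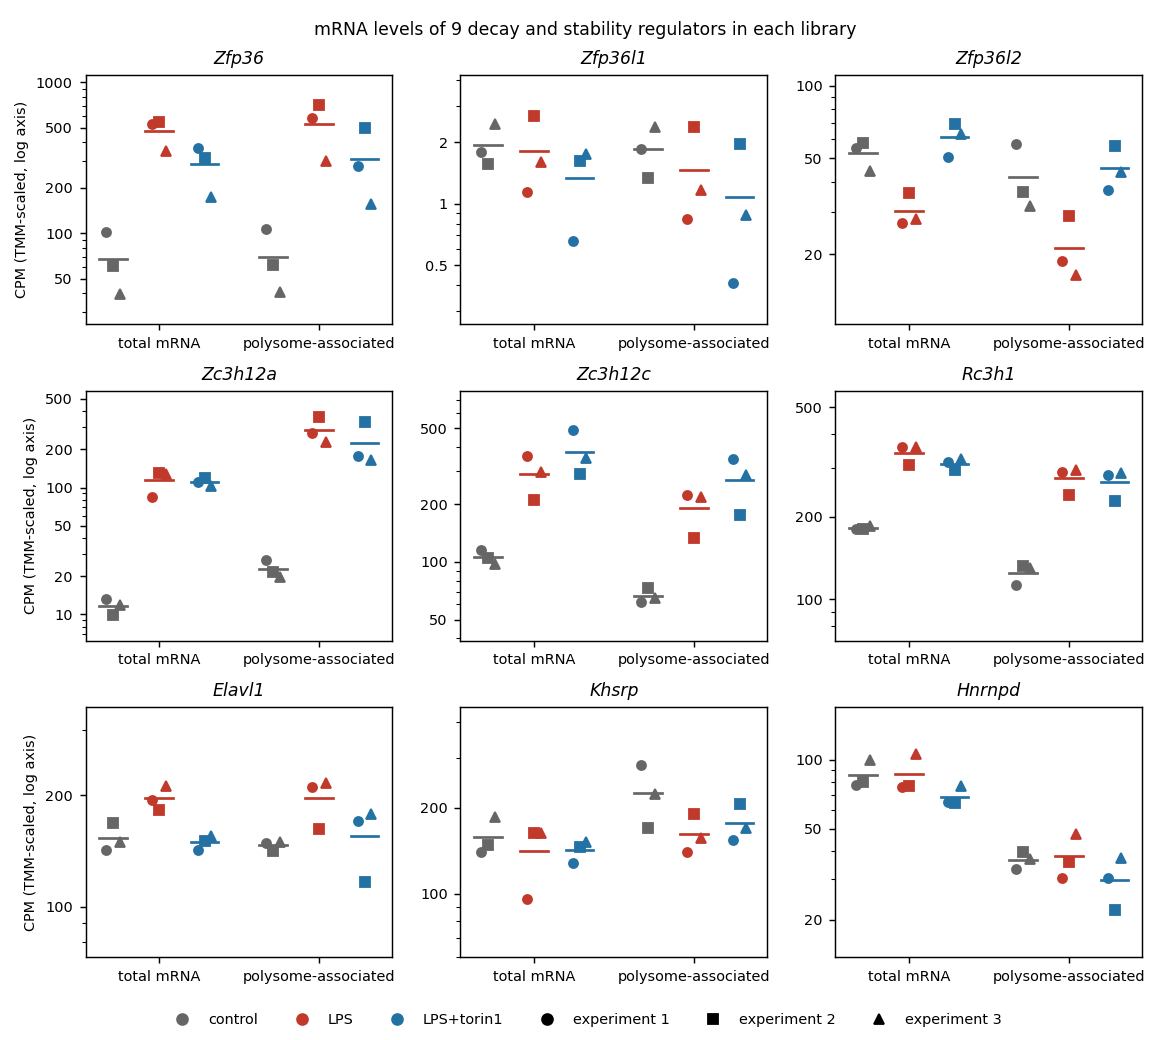
Level of each of the 9 mRNAs in every library, in TMM-scaled CPM on a log axis, for total mRNA (left of each panel) and polysome-associated mRNA (right). Points are libraries, with a shape for each of the 3 experiments and a colour for each treatment, and bars are the means of 3 libraries. LPS libraries lie above every control library for Zfp36, Zc3h12a, Zc3h12c, Rc3h1 and Elavl1 in both RNA types and below every control library for Zfp36l2.

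Zfp36 (chr7:28376784-28380253, minus strand) stood at 102, 60.4 and 39.7 CPM in the total mRNA of control cells of experiments 1 to 3, at 533, 546 and 352 with LPS and at 369, 317 and 173 with LPS and torin1. In polysome-associated mRNA it stood at 107.1, 61.7 and 40.6 in control cells, at 582, 705 and 300.0 with LPS and at 277, 502 and 157 with both. Every LPS library was above every control library, whereas the torin1 libraries overlapped the LPS libraries in both RNA types. Experiment 3 had the lowest Zfp36 level under every treatment in both RNA types. The rise with LPS was 2.82 ± 0.37 on the log2 scale in total mRNA (fitted value ± SE, adjusted p = 0.000164) and 2.92 ± 0.49 on polysomes (adjusted p = 0.00126). Against LPS alone, torin1 gave -0.74 ± 0.35 in total mRNA (adjusted p = 0.140, or 0.00330 with the experiment as a block). The 95% interval without the block was -1.51 to 0.04, and the level was lower in 3 of 3 experiments. The polysome difference was -0.76 ± 0.46 and did not pass (adjusted p = 0.298), though it did with the experiment as a block (adjusted p = 0.0575). Leaving out experiment 2 ended the total-mRNA call with torin1 (adjusted p = 0.349).

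The promoter of Zfp36, an immediate-early gene, is shown because it is the member with the highest level after LPS. RefSeq gives 300 bases around its start (GRCm38.p6, chr7:28379179-28379478, minus strand, 250 bases before the start site and 50 from it), written 5′ to 3′ with the match to the CArG box, the motif of serum response factor, in capitals.

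Zfp36 promoter: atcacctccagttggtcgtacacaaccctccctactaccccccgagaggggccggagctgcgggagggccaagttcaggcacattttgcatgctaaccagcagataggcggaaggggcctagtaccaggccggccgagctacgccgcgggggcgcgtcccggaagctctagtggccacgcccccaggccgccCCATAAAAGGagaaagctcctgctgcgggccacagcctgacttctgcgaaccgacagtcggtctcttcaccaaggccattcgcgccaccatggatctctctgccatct

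RefSeq promoters matched 8 of the 9 members by symbol, with 2 entries for Zc3h12c and none for Zfp36l2. They were searched on both strands for 4 motifs, namely the CArG box, the κB motif, the AP-1 motif (TGACTCA or TGAGTCA) and the CRE (TGACGTCA). The CArG box was found at bases 193 to 202 of the Zfp36 window and at bases 251 to 260 of the Hnrnpd window, and 1.63% of all 32851 promoters hold it. The AP-1 motif was found in the Rc3h1 window, before the start site, and 5.20% of promoters hold it. Neither the κB motif (4.51% of promoters) nor the CRE (1.79%) was found in these windows of the 8 members. Sequence outside the 300-base windows was not searched.

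Zfp36l2 (chr17:84183931-84187947, minus strand) moved the other way. Its total mRNA was 55.3, 57.7 and 44.2 CPM in control cells, 27.0, 35.9 and 28.1 with LPS and 50.7, 69.7 and 63.4 with LPS and torin1. On polysomes it was 57.4, 36.4 and 31.7, then 18.7, 28.8 and 16.3, then 37.0, 56.4 and 43.8 CPM. The LPS libraries lay below every library of the other treatments in both RNA types, and the control and torin1 libraries overlapped. With LPS it fell by 0.79 ± 0.16 in total mRNA (adjusted p = 0.00227) and by 0.98 ± 0.28 on polysomes (adjusted p = 0.0214). With torin1 it was higher than with LPS alone by 1.01 ± 0.16 in total mRNA (adjusted p = 0.00153) and by 1.10 ± 0.28 on polysomes (adjusted p = 0.0270), in 3 of 3 experiments each. These comparisons share the LPS libraries, so a chance deviation in them would enter both with opposite sign. LPS+torin1 against control gave 0.23 ± 0.16 in total mRNA (adjusted p = 0.264, or 0.135 with the experiment as a block, which passes) and -0.08 with library totals. The polysome fall with LPS did not pass without experiment 1 (adjusted p = 0.263).

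Zfp36l1 (chr12:80107754-80113013, minus strand) was close to the lower limit of measurement, with 16 to 126 counts and 0.412 to 2.67 CPM per library. Its control and LPS libraries overlapped, and LPS gave -0.09 ± 0.40 in total mRNA (adjusted p = 0.868) with a 95% interval of -0.97 to 0.78. Torin1 against LPS gave -0.44 ± 0.41 in total mRNA (adjusted p = 0.454) and -0.44 ± 0.54 on polysomes (adjusted p = 0.632). LPS+torin1 against control gave -0.53 ± 0.41 in total mRNA (adjusted p = 0.310), which passed with the experiment as a block (adjusted p = 0.161). A noncoding gene on the other strand, Gm26669, shares 1672 of its exon bases and 1 annotated pseudogene is named after it, so its low counts are uncertain. Within the tristetraprolin family, 1 member thus rose, 1 fell and 1 did not pass with LPS.

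Zc3h12a (chr4:125118423-125127840, minus strand) was the lowest member per length but for Zfp36l1 in control total mRNA, and had the largest log2 rise with LPS of the 9. Its total mRNA was 13.1, 9.90 and 11.9 CPM in control cells, 83.5, 130.99 and 128 with LPS and 109.6, 119.7 and 102 with LPS and torin1. On polysomes it was 26.9, 21.5 and 19.6 CPM, then 267, 361 and 229, then 178, 328 and 164. All libraries with LPS were above all control libraries, and the torin1 libraries overlapped the LPS libraries in both RNA types. The rise with LPS was 3.30 ± 0.19 in total mRNA (adjusted p = 9.69e-07) and 3.66 ± 0.30 on polysomes (adjusted p = 1.67e-05), or 12.6-fold. With torin1 against LPS the total-mRNA difference was -0.05 ± 0.17 (adjusted p = 0.869), with a 95% interval of -0.42 to 0.33, and its sign turned with library totals (0.02). The polysome difference was -0.36 ± 0.27 (adjusted p = 0.416, or 0.197 with the experiment as a block, which passes), lower in 3 of 3 experiments. No annotated gene overlaps the exons of Zc3h12a.

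Zc3h12c (chr9:52111344-52168572, minus strand) stood at 115, 104.7 and 97.6 CPM in control total mRNA, at 358, 210.5 and 295 with LPS and at 488, 289 and 349.5 with LPS and torin1. Its polysome levels were 62.0, 72.7 and 64.9, then 224, 134 and 218, then 343, 175 and 284 CPM. Control libraries were the lowest throughout, experiment 2 was the lowest of each stimulated group, and the LPS and torin1 groups overlapped. It rose with LPS by 1.44 ± 0.22 in total mRNA (adjusted p = 0.000421) and by 1.53 ± 0.26 on polysomes (adjusted p = 0.00144). It was higher with torin1 than with LPS alone by 0.39 ± 0.22 in total mRNA (adjusted p = 0.207, or 0.0415 with the experiment as a block). On polysomes it was higher by 0.48 ± 0.26 (adjusted p = 0.242). Each held in 3 of 3 experiments, with 95% intervals of -0.09 to 0.86 and -0.09 to 1.05 without the block. Neither torin1 call stood without experiment 3 (adjusted p = 0.401 and 0.522), and the polysome call was also lost without experiment 1 (0.585).

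Rc3h1 (chr1:160906418-160974978, plus strand) gave 180.1, 180.1 and 184 CPM in control total mRNA, 359, 307 and 359 with LPS and 315, 296 and 323 with LPS and torin1. On polysomes it gave 112.8, 132 and 130.3, then 291, 239 and 297, then 285, 228 and 288 CPM. Control libraries were the lowest and the stimulated groups overlapped. It rose with LPS by 0.91 ± 0.10 in total mRNA (adjusted p = 4.17e-05) and by 1.14 ± 0.16 on polysomes (adjusted p = 0.000349). Torin1 against LPS gave -0.13 ± 0.10 in total mRNA (adjusted p = 0.328, or 0.195 with the experiment as a block, which passes) and -0.05 ± 0.16 on polysomes (adjusted p = 0.872, and 0.02 in place of -0.05 with library totals).

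Elavl1 (chr8:4285382-4325413, minus strand) gave 143, 168 and 149 CPM in control total mRNA, 195, 183 and 211 with LPS and 142, 150.1 and 155 with LPS and torin1. On polysomes it gave 149, 142 and 149, then 211, 161 and 216, then 169.8, 116.8 and 178 CPM. In total mRNA the LPS libraries were above all others, and on polysomes they were above the control libraries and overlapped the torin1 libraries. It rose with LPS relative to the bulk of mRNAs by 0.35 ± 0.10 in total mRNA (adjusted p = 0.0158) and by 0.42 ± 0.18 on polysomes (adjusted p = 0.107), whereas with library totals the values were -0.01 and 0.07 and neither passed (adjusted p = 0.936 and 0.789). Relative to LPS alone, with torin1 it fell by 0.40 ± 0.10 in total mRNA (adjusted p = 0.0158) and by 0.34 ± 0.18 on polysomes (adjusted p = 0.244), in 3 of 3 experiments each. The polysome calls were lost without experiment 1 (adjusted p = 0.420 for LPS and 0.533 for torin1) or without experiment 3 (0.402 and 0.565). Its exons share 204 bases with Ccl25 on the other strand, a measured gene.

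Khsrp (chr17:57021051-57031522, minus strand) ranged from 95.7 to 186 CPM in total mRNA and from 140.3 to 283 on polysomes, and its groups overlapped in both RNA types. LPS gave -0.16 ± 0.20 in total mRNA (adjusted p = 0.531, or 0.248 with the experiment as a block, which passes). On polysomes it fell by 0.47 ± 0.21 (adjusted p = 0.106), with experiment differences of -1.01, 0.16 and -0.50, and the call was lost without experiment 1 (-0.18, adjusted p = 0.686) or experiment 3 (adjusted p = 0.365). With library totals Khsrp passed as lower in total mRNA as well (-0.52, adjusted p = 0.0471). Torin1 against LPS gave 0.01 ± 0.20 and 0.12 ± 0.21 in the respective RNA types (adjusted p = 0.974 and 0.734), and the total-mRNA value was -0.01 with DESeq2's size factors.

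Hnrnpd (chr5:99955935-99978938, minus strand) ranged from 64.7 to 105.8 CPM in total mRNA and from 22.0 to 47.4 on polysomes. LPS gave 0.01 ± 0.15 in total mRNA (adjusted p = 0.963, 95% interval -0.33 to 0.35) and 0.05 ± 0.22 on polysomes (adjusted p = 0.889), both of which turned negative with library totals (-0.35, which passed with adjusted p = 0.0817, and -0.30). Relative to LPS alone, with torin1 it fell by 0.32 ± 0.15 in total mRNA (adjusted p = 0.141, or 0.0116 with the experiment as a block). This held in 3 of 3 experiments, but with library totals it did not pass (adjusted p = 0.260). The polysome difference was -0.34 ± 0.22 (adjusted p = 0.335, or 0.220 with the experiment as a block, which passes). Against control, LPS+torin1 gave -0.31 ± 0.15 in total mRNA (adjusted p = 0.120, or 0.00783 with the experiment as a block). Without experiment 2 the difference did not pass (adjusted p = 0.262).

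Adding torin1 to LPS therefore left the induced decay factors high. Against LPS alone 2 members passed as higher (Zfp36l2 and Zc3h12c) and 3 as lower (Zfp36, Elavl1 and Hnrnpd) in total mRNA, against 27.3% and 26.4% of all genes. On polysomes 2 passed as higher (Zfp36l2 and Zc3h12c) and 1 as lower (Elavl1), against 20.3% and 18.2% of all genes. The polysome count depended on the fit and was 1 without experiment 1 or without experiment 3. Its split was 2 higher and 0 lower with library totals and 1 and 1 with DESeq2's size factors. Of all genes called on polysomes, 52.7% were higher, against 62.1% with library totals and 50.1% with DESeq2's size factors. Against control, LPS+torin1 cells had 4 members higher (Zfp36 by 2.09, Zc3h12a by 3.25, Zc3h12c by 1.83 and Rc3h1 by 0.78 on the log2 scale) and 1 lower (Hnrnpd) in total mRNA, against 33.1% and 33.6% of all genes. On polysomes the same 4 members were higher, by 2.16, 3.30, 2.01 and 1.10, and 1 (Khsrp) was lower, against 28.5% and 29.7% of all genes. The Khsrp difference was -0.35 ± 0.21 (adjusted p = 0.214), lower in 2 of 3 experiments, and did not pass without experiment 1 (adjusted p = 0.879) or experiment 3 (adjusted p = 0.548). With library totals, LPS+torin1 against control gave 4 members higher and 4 lower in total mRNA and 4 and 3 on polysomes, as the share of higher genes among all genes called went from 49.6% to 26.4% and from 48.9% to 27.0%.

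**Figure D2:**
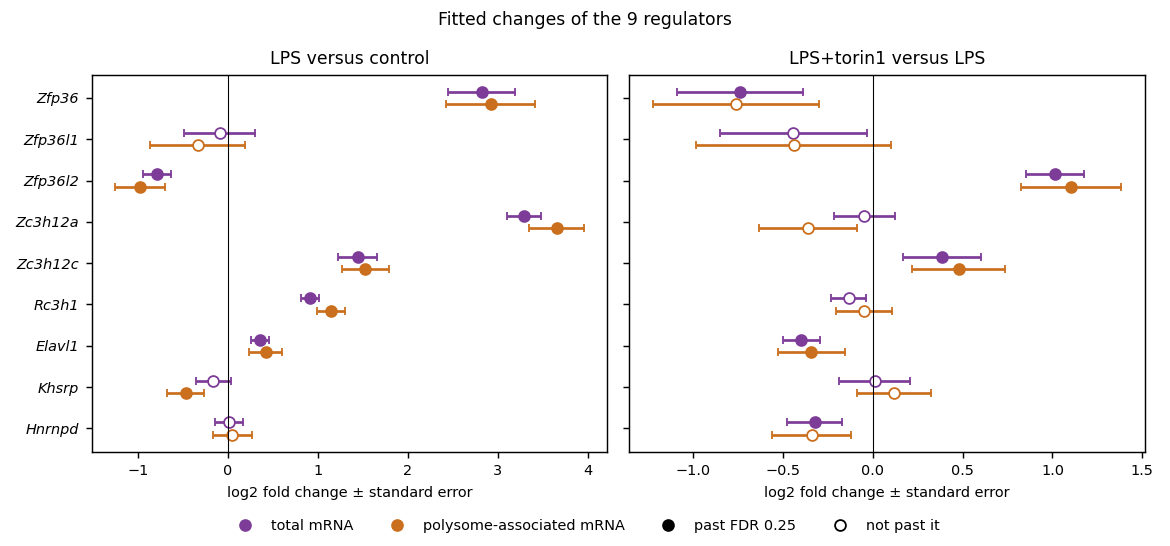
Fitted log2 fold change of each member (x axis, ± SE from edgeR, 3 libraries a group) for LPS against control and for LPS+torin1 against LPS, in total (purple) and polysome-associated (orange) mRNA. Filled points passed an FDR of 0.25 and open points did not. Zfp36 and Zc3h12a lie furthest to the right with LPS (2.82 and 3.30 in total mRNA), and Zfp36l2 lies left of 0 with LPS and right of 0 with torin1.

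Per length, the order of the members changed between treatments. In RPKM (TMM-scaled CPM per kilobase of merged exon) of control total mRNA, Khsrp led with 36.5 ± 5.67 (SD, n = 3), followed by Zfp36 with 19.4 ± 9.16, Rc3h1 with 16.1 ± 0.22, Zc3h12c with 15.5 ± 1.29, Zfp36l2 with 14.8 ± 2.03 and Elavl1 with 14.8 ± 1.299. Neighbours from Zfp36 to Elavl1 in that order differed by less than the larger of their SDs. Hnrnpd (11.6 ± 1.61), Zc3h12a (4.04 ± 0.56) and Zfp36l1 (0.65 ± 0.16) came last. The merged exon of Zfp36 is 1 block of 3470 bases that spans the whole gene. A shorter transcript model would raise its RPKM, so its place in the order depends on that length. With LPS, Zfp36 led with 138 ± 31.3 RPKM, followed by Zc3h12c with 42.0 ± 10.8, Zc3h12a with 39.6 ± 9.19, Khsrp with 32.6 ± 9.06 and Rc3h1 with 30.2 ± 2.63. Neighbours from Zc3h12c to Rc3h1 again differed by less than the larger of their SDs. Zfp36l2 (8.59 ± 1.37 RPKM) stood below Elavl1 (18.9 ± 1.39) and Hnrnpd (11.7 ± 2.31) under LPS.

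Translation efficiency (TE), the change of polysome-associated mRNA beyond that of total mRNA, asks whether a regulator's transcripts were loaded onto heavy polysomes differently after treatment. No member passed (FDR 0.25 and a fold of at least 1.2) for LPS against control or for LPS+torin1 against LPS, where edgeR's interaction test called 0% of all genes. Of all genes, 44 and 110 had an unadjusted p under 0.05, none of them a member, and DESeq2 called 1 and 13 genes. Both of edgeR's counts were below what chance alone would give at that cutoff, so its test was conservative here. The lack of calls therefore does not show that TE was unchanged. At the same FDR, the paper's own tool gave a subset of mRNAs with altered TE after LPS, which torin1 largely reversed. The fitted TE change with LPS ran from -0.31 ± 0.30 for Khsrp (95% interval -0.93 to 0.32) to 0.36 ± 0.34 for Zc3h12a (-0.36 to 1.08), and with torin1 from -0.34 ± 0.34 for Zc3h12a (-1.05 to 0.37) to 0.09 ± 0.30 for Khsrp (-0.54 to 0.71). For Zfp36 the intervals reached from -1.24 to 1.43 with LPS and from -1.39 to 1.28 with torin1. They did not exclude changes of over 2-fold in either direction, in a fit that did not pair the RNA types of a lysate. When each lysate's RNA types were compared, Zfp36 TE moved by 0.06, 0.34 and -0.26 with LPS in experiments 1 to 3. With torin1 against LPS it moved by -0.54, 0.29 and 0.09. For Rc3h1 the intervals were narrower, from -0.15 to 0.61 and from -0.32 to 0.44.

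Enrichment on heavy polysomes relative to other mRNAs nevertheless differed widely among the members, whatever the treatment. The log2 ratio of polysome to total CPM (library totals, within a lysate) is given as a description, with its percentile among all genes. Each RNA type was scaled to its own library, so the ratio does not give the fraction of a transcript on polysomes. Zc3h12a had ratios of 0.97, 1.16 and 0.73 in control lysates, 1.70, 1.47 and 0.84 with LPS and 0.67, 1.48 and 0.68 with LPS and torin1. Its means of 0.95, 1.34 and 0.95 stood at the 92.6, 99.0 and 97.4 percentiles, all 9 lysates being above the median of all genes (0.02 to 0.04). Hnrnpd had the opposite profile, with means of -1.23 ± 0.23, -1.19 ± 0.11 and -1.23 ± 0.26 (SD, n = 3) at the 2.92, 3.02 and 2.30 percentiles. Zc3h12c (-0.68 ± 0.25 in control lysates) and Rc3h1 (-0.55 ± 0.17) were below the median of all genes in every lysate, as was Zfp36l2 (-0.37 ± 0.32), and Khsrp was above it in 8 of 9 lysates (0.49 ± 0.40 in control lysates). Zfp36 lay near the median, at 0.04 ± 0.03, 0.09 ± 0.31 and 0.04 ± 0.59.

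**Figure D3:**
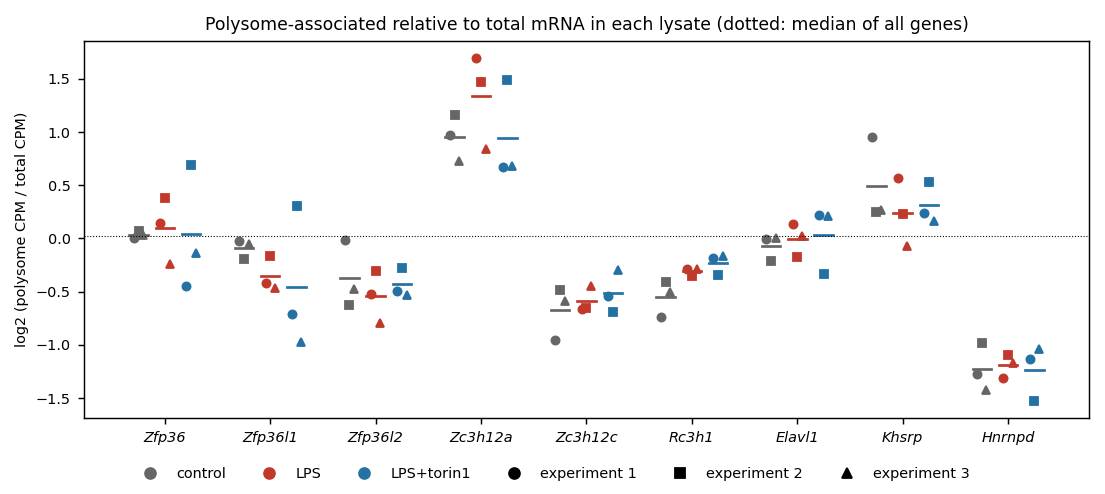
Log2 ratio of polysome to total CPM in each of the 9 lysates, by member and treatment. Points are lysates, bars are means of 3, and the dotted line is the mean of the medians of all genes. Zc3h12a lies above the line and Hnrnpd below it in every lysate, and the treatments of each member overlap except for Rc3h1, whose control lysates lie below all its other lysates.

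The genes through which the members act were taken from 6 lists of named genes, of which 14 genes, Il6 and Csf2 among them, were not rows of the table and are not analysed here. Deadenylases and their adaptors (CCR4-NOT, PAN2-PAN3, PARN, TOB and BTG proteins) numbered 5 higher and 6 lower of 17 measured genes with LPS in total mRNA, with a median of -0.04, beside -0.02 for all genes. Of all genes 32.2% were higher and 34.3% lower, so the shares in the deadenylation list were near the background. The adaptors Btg2 (1.38 ± 0.31, adjusted p = 0.00416) and Btg1 (1.35 ± 0.14, adjusted p = 4.17e-05) rose, and Tob1, another adaptor (-0.57 ± 0.18, adjusted p = 0.0278), and the deadenylase Cnot6l (-0.44 ± 0.10, adjusted p = 0.00439) fell. Decapping and 5′-to-3′ decay genes numbered 6 higher and 5 lower of 20, no larger shares than among all genes, and included the 5′-to-3′ exonuclease Xrn1 (0.85 ± 0.13, adjusted p = 0.000372) and the decapping enzyme Dcp2 (0.85 ± 0.09, adjusted p = 3.77e-05), which rose, and Dcp1b (-0.44 ± 0.15, adjusted p = 0.0326) and the 4E-T gene Eif4enif1 (-0.41 ± 0.11, adjusted p = 0.00908), which fell. Exosome and SKI genes numbered 3 higher and 4 lower of 16, smaller shares than among all genes, with Ttc37 of the SKI complex (0.49 ± 0.13, adjusted p = 0.00912) and Exosc3 (0.34 ± 0.15, adjusted p = 0.0929) higher and Exosc8 (-0.55 ± 0.11, adjusted p = 0.00264) and Exosc7 (-0.54 ± 0.13, adjusted p = 0.00658) lower. With library totals these 3 splits became 4 and 12, 3 and 14, and 0 and 14. Of all genes called, the share of higher ones went from 48.4% to 19.8%.

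With torin1 against LPS 26.4% of all genes passed as lower and 27.3% as higher in total mRNA, and 18.2% and 20.3% on polysomes. Exosome and SKI genes numbered 0 higher and 12 lower of 16 in total mRNA (median -0.29, beside 0.00 for all genes), and 0 and 5 on polysomes. Ttc37 fell by 0.80 ± 0.13 (adjusted p = 0.00167), Exosc3 by 0.47 ± 0.15 (adjusted p = 0.0416), Exosc8 by 0.47 ± 0.11 (adjusted p = 0.0124) and Exosc7 by 0.29 ± 0.13 (adjusted p = 0.127). Decapping genes numbered 2 higher and 12 lower of 20 (median -0.22) in total mRNA and 2 and 7 on polysomes. Dcp2 fell by 0.60 ± 0.09 (adjusted p = 0.00115), and Dcp1b, lower with LPS than in control cells, was higher with torin1 by 0.93 ± 0.15 (adjusted p = 0.00168). The genes named were picked by their change in the same LPS libraries, so a chance deviation there would enter these values with opposite sign. With library totals the splits in total mRNA were 0 and 9 for the exosome and 3 and 6 for decapping. Of all genes called there, 50.9% were higher with TMM and 60.5% with library totals. Deadenylation genes numbered 2 higher and 4 lower of 17, which became 4 and 1 with library totals, so their direction depended on the scaling.

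**Figure D4:**
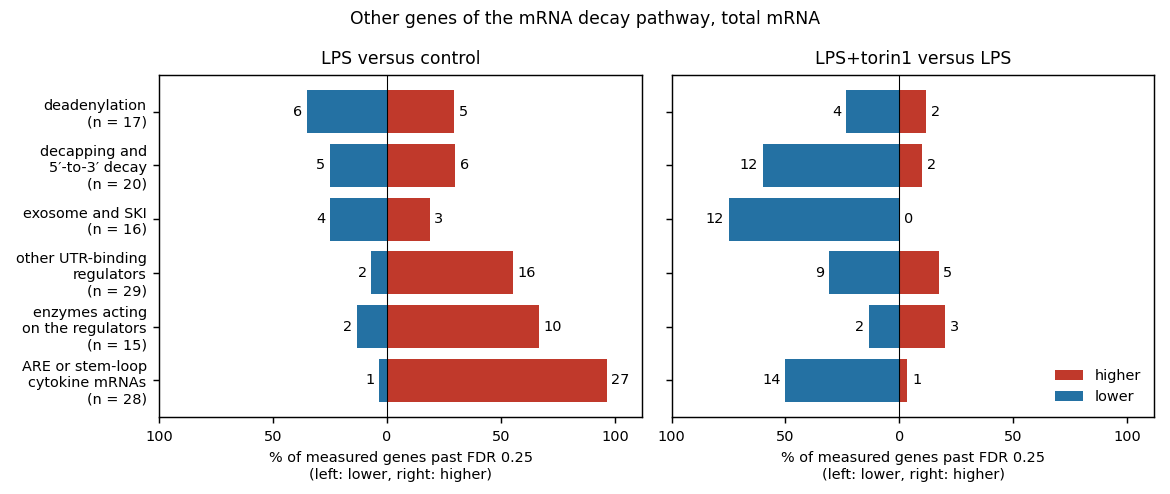
Share of measured genes of each list (x axis, in percent, with the gene counts beside the bars) past an FDR of 0.25 as higher (red, right) or lower (blue, left) in total mRNA, for LPS against control and LPS+torin1 against LPS. The cytokine and inflammatory mRNAs with described decay elements are 27 higher and 1 lower with LPS and 1 higher and 14 lower with torin1. The exosome and SKI genes are 0 higher and 12 lower with torin1.

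Other 3′ UTR-binding regulators numbered 16 higher and 2 lower of 29 with LPS in total mRNA (median 0.24), beside 32.2% and 34.3% of all genes, and 6 and 11 with library totals. Arid5a, which protects inflammatory stem-loops from Regnase-1, rose by 4.69 ± 0.35 with LPS (adjusted p = 4.58e-06). It was lower by 1.82 ± 0.30 with torin1 than with LPS alone (adjusted p = 0.00189). The RNA-binding protein gene Igf2bp2 rose by 2.35 ± 0.27 with LPS (adjusted p = 6.16e-05). With torin1 it was lower by 0.72 ± 0.25 than with LPS alone (adjusted p = 0.0549). The translational regulators Cpeb2 (-0.67 ± 0.18, adjusted p = 0.0124) and Tia1 (-0.43 ± 0.14, adjusted p = 0.0253) fell with LPS. In all, 5 of these genes were higher and 9 lower with torin1 than with LPS alone, beside 27.3% and 26.4% of all genes.

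Kinases, phosphatase subunits and the protease that act on the members numbered 10 higher and 2 lower of 15 with LPS (median 0.37), beside 32.2% and 34.3% of all genes, and 6 and 6 with library totals. Malt1, the protease that cleaves Regnase-1 and Roquin-1, had 83.1 ± 6.97 CPM in control total mRNA, 590.4 ± 118.3 after LPS and 1397 ± 161 after both agents (SD, n = 3). It rose by 2.83 ± 0.16 with LPS (adjusted p = 1.07e-06) and was higher by 1.24 ± 0.16 with torin1 than with LPS alone (adjusted p = 0.000482). On polysomes these differences were 2.87 ± 0.26 and 1.37 ± 0.25. The kinase gene Ikbke rose by 2.76 ± 0.14 with LPS (adjusted p = 4.22e-07) and gave 0.06 ± 0.13 with torin1 (adjusted p = 0.744). The kinase genes Mapk14, for p38α, and Irak1 fell with LPS by 0.29 ± 0.12 and 0.20 ± 0.09 (adjusted p = 0.0705 and 0.0878). With torin1 3 genes of the list passed as higher and 2 as lower, no larger shares than the 27.3% and 26.4% of all genes, a split that became 4 and 4 with the experiment as a block and 3 and 4 with DESeq2's size factors.

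Among the lists, the cytokine and inflammatory mRNAs with described AU-rich or stem-loop decay elements moved furthest. The list includes Il1b, Tnf and Ptgs2, which LPS induces, so a rise follows from the choice of genes. It says nothing about the decay elements. Of 35 genes listed, 28 were rows of the table, which leaves out any gene with 0 counts in a library. Il6, Csf2, Nos2 and Cxcl1 were among those absent, so the counts and medians cover the measured genes only. With LPS 27 of 28 measured genes were higher and 1 lower in total mRNA, beside 32.2% and 34.3% of all genes, with a median of 4.03. Il1a had 3 to 25 counts per control library and 10201 to 20170 per LPS library (10.29 ± 0.53, adjusted p = 4.73e-07), Il1b rose by 9.85 ± 0.64 (adjusted p = 2.12e-06), Csf3 by 9.53 ± 0.66 (adjusted p = 3.03e-06) and Lif by 7.60 ± 0.42 (adjusted p = 8.39e-07). Fos, the immediate-early gene, was the faller (-0.88 ± 0.27, adjusted p = 0.0236). Tnf, named here as a textbook target and not by size, rose by 3.21 ± 0.23 (adjusted p = 3.15e-06).

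With torin1 against LPS 1 of these 28 genes was higher and 14 were lower in each RNA type, beside 27.3% and 26.4% of all genes in total mRNA and 20.3% and 18.2% on polysomes, with medians of -0.56 in total mRNA and -0.74 on polysomes, beside 0.00 for all genes. Il1a fell by 2.34 ± 0.34 (adjusted p = 0.00110), Lif fell by 2.33 ± 0.31 (adjusted p = 0.000632), Il1b fell by 1.82 ± 0.44 (adjusted p = 0.0121) and Fos fell by 0.84 ± 0.27 (adjusted p = 0.0423) in total mRNA. Csf3 gave -0.27 ± 0.45 (adjusted p = 0.690) and Tnf gave -0.22 ± 0.21 (adjusted p = 0.470), and neither passed. Except for Tnf, the genes named were picked by their change with LPS in the same LPS libraries. A chance deviation there would enter these differences with opposite sign. Whether any of the regulators had a part in the levels of these mRNAs was not tested, and mRNA half-lives and protein were not measured in these libraries.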

How the data were processed

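Ribosome-depleted stranded libraries of total and heavy-polysome RNA were sequenced as read pairs. The authors aligned reads to GRCm38 with Hisat2 in an nf-core RNA-seq pipeline at default settings, counted them with featureCounts on the Ensembl annotation, and deposited raw counts of protein-coding genes, leaving out genes with 0 counts in any library (aligner, counter and annotation versions and the strand setting: not given in the sources used here). From these counts, edgeR 4.0.16 (R 4.3.3) was fitted by RNA type over 9 libraries with TMM factors, its quasi-likelihood test and Benjamini-Hochberg adjustment over 11243 genes at FDR 0.25. TE was the interaction in 1 model of 18 libraries and also needed a 1.2-fold change. The study used another TE tool, not run here. CPM had a pseudocount of 0.5 for log differences. The lowest depth was 27800983 counts.

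Members were taken by name. From each list the 2 largest risers and fallers of total mRNA with LPS were named (4 risers for cytokines), if past the threshold and alike in 3 experiments. Their torin1 values use the LPS libraries that picked them, so a chance deviation there would enter both with opposite sign. The members and lists were chosen with earlier results of these data known. Experiments are called independent, so p-values measure the spread between cultures of 1 line.

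Replicate numbers were taken to pair total-mRNA samples, because deviations from group means correlated in all 9 same-number pairs (lowest r 0.13). The main fits still carried no block, and p-values and intervals are from them unless another setting is named. On polysomes the mean r was 0.32 for same-number pairs and -0.16 for other pairs, with a lowest same-number r of -0.14. Total and polysome RNA shared a lysate by design, so numbers that pair total-mRNA samples pair polysome samples too. Alternatives were DESeq2 1.42.0 and its size factors, library totals (added after seeing the data), the replicate block, a minimum of 10 counts in every library, FDR 0.05, other sets of libraries in the fit, leaving out each experiment, and for TE an analysis of partial variance with limma 3.58.1. Scripts were tested on simulated data. Sequences were read from GRCm38 with GENCODE vM21 and from RefSeq promoters. Exons of 7 members share bases with a gene on the opposite strand. Of the genes most alike Zc3h12a, 1 is not reported here.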

Additional observations from a re-analysis of the deposited data

How the results depend on the processing

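Of 86 recounts of the members that passed, 75 stayed within 1.5 times the reported count. In total mRNA, LPS+torin1 against LPS went from 5 members to 2 at FDR 0.05 and to 2 in a single fit of all libraries, and LPS+torin1 against control went from 5 to 8 with library totals (4 higher, 4 lower). On polysomes, LPS against control ranged from 4 to 8 when an experiment was left out (4 without experiment 1). LPS+torin1 against LPS, with 3 members on polysomes, ranged from 1 to 5 when an experiment was left out, and was 1 at FDR 0.05, 5 in a single fit of all libraries and 1 with only the treatments compared. With the replicate number as a block, this count was 6, Zfp36 (adjusted p = 0.0575), Zc3h12a (0.197) and Hnrnpd (0.220) being added. Same-number correlations on polysomes were not positive in every pair. For LPS+torin1 against control the block added Zfp36l1 (0.116) and Hnrnpd (0.198) on polysomes. In total mRNA the block added only the calls given beside the results, and no member passed for TE with it. Among all genes, the counts past the threshold went from 6038 to 3959 without experiment 3 in total mRNA for torin1 against LPS, from 6191 to 3901 without experiment 1 on polysomes for LPS against control, from 4322 to 1782 and 1187 without experiments 1 and 3 on polysomes for torin1 against LPS, and from 6546 to 4156 without experiment 3 on polysomes for LPS+torin1 against control. At FDR 0.05 those counts were 3279, 3654, 1557 and 3950. For TE, DESeq2 called 1 and 13 genes, the block 0 and 25 and the analysis of partial variance 2 and 3. The causes were not tested.

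Of 774 refitted log2 changes of the members, 669 kept their direction and side of the threshold, 29 newly passed, 35 no longer passed and 41 changed sign. Only 1 of these had passed, the rise of Elavl1 in total mRNA with LPS (-0.010 with library totals). With library totals, signs also turned for Hnrnpd with LPS (-0.35 in total mRNA, -0.30 on polysomes), Zc3h12a in total mRNA with torin1 against LPS (0.017), Rc3h1 on polysomes with torin1 against LPS (0.018), Zfp36l2 in LPS+torin1 against control (-0.076 and -0.16) and Elavl1 on polysomes in LPS+torin1 against control (-0.21). Khsrp in total mRNA with torin1 against LPS was -0.0093 with DESeq2's size factors and -0.0092 with its test. When an experiment was left out, ranges that crossed 0 in total mRNA were -0.63 to 0.19 for Zfp36l1 and -0.045 to 0.042 for Hnrnpd with LPS, -0.14 to 0.11 for Khsrp and -0.22 to 0.10 for Zc3h12a with torin1 against LPS, and -0.088 to 0.026 for Elavl1 in LPS+torin1 against control. On polysomes they were -1.06 to 0.028 for Zfp36l1 and -0.14 to 0.15 for Hnrnpd with LPS, and -0.14 to 0.56 for Zfp36l2 in LPS+torin1 against control.

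For TE with LPS the ranges that crossed 0 were -0.48 to 0.057 for Zfp36l2, -0.050 to 0.19 for Zfp36 and -0.10 to 0.12 for Hnrnpd, and the analysis of partial variance gave 0.15 for Zfp36l2, -0.40 for Zfp36 and -0.36 for Rc3h1. For TE with torin1 they were -0.44 to 0.28 for Zfp36l1, -0.12 to 0.13 for Hnrnpd, -0.33 to 0.28 for Zfp36, -0.0082 to 0.26 for Khsrp and -0.031 to 0.13 for Elavl1. There the analysis of partial variance gave 0.019 for Zfp36l1, 0.068 for Zfp36, -0.32 for Zfp36l2 and -0.15 for Elavl1. DESeq2's size factors gave 0.024 for Zfp36l1 and 0.013 for Hnrnpd, its test 0.026 and 0.013, and library totals 0.0010 for Zfp36l1. All 108 recomputed polysome-to-total ratios moved by less than 1 SD. With 3 experiments a group, TE changes within the intervals given were not excluded.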

Other observations

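The genes whose levels followed those of the 2 most induced members were listed by Pearson's r of log2 CPM over all 18 libraries. The libraries share lysates and treatments, so r describes the 3 treatment levels more than independent samples and carries no p. For Zfp36 they were Mxd1 (0.961), which encodes a MYC-network repressor, Stx11 (0.961), a syntaxin, Btg2 (0.960), Bcl2l11 (0.959), which encodes the BH3-only protein BIM, and Ier3 (0.954), an immediate-early gene. For Zc3h12a they included Plaur (0.990), the urokinase receptor, Bcl2l1 (0.989), which encodes BCL-XL, Rhbdf2 (0.987), which encodes iRhom2, and Plk3 (0.987), a polo-like kinase. Btg2 was in the deadenylation list, and Ier3, Plaur and Plk3 were in the list of mRNAs with described decay elements.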
